A study of Homo sapiens with 6 samples.

Results

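The genes described here are 9 members of the receptor tyrosine kinase systems that read VEGF, PDGF and stem cell factor, namely the receptor genes KDR, FLT1, FLT4, PDGFRA, PDGFRB and KIT and the ligand genes VEGFA, VEGFB and VEGFC, out of 19974 protein-coding genes on chromosomes 1 to 22 and X. Their open chromatin was read as the ATAC-seq peaks that overlap a gene's RefSeq interval or lie within 100 kb of it. The set was chosen by peak values, above all the high fold enrichment at the KDR start, which was already known in these lists, so the folds at KDR are given as a description and nothing is tested with them. The cells were hTERT-RPE1, a telomerase-immortalised human line of retinal pigment epithelium, labelled wild type and untreated as far as the labels say, and ATAC-seq reads accessible DNA as the places where the transposase Tn5 cuts. The 6 libraries belong by title to the sets R1 and R2, 3 libraries each, and each set is given as 1 merged peak list. The labels used here do not say what separates R1 from R2, or whether libraries of a set are technical repeats, so a region found in both lists is not known to be found in separate cultures. Within a set no spread between replicates can be had, no p-value is given, and R1 and R2 values stand side by side as values of 2 pooled lists. A region found in both lists by an overlap of at least 1 bp is called shared, and 146 of the 122421 shared regions lay at the 9 genes.

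VEGF ligands are secreted dimers that bind receptors of the VEGF family on endothelial cells. VEGFA acts through KDR (VEGF receptor 2), the main signalling receptor of blood vessels, and through FLT1 (VEGF receptor 1), which also binds VEGFB and can act as a decoy. VEGFC acts through FLT4 (VEGF receptor 3) in lymphatic vessels. PDGFRA and PDGFRB are the PDGF receptors of mesenchymal and mural cells, and KIT is the receptor for stem cell factor in mast cells, melanocytes and blood progenitors. The retinal pigment epithelium is known as a source of VEGFA for the vessels that lie beneath it. PDGFRA, KIT and KDR are neighbours on chromosome 4, where PDGFRA and KIT are read in one direction and KDR in the other.

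The stretches before the starts of PDGFRA, KIT, KDR and FLT1 are shown because they show where the peaks do and do not cover a promoter. Each line gives the 250 bases that precede a start, 5′ to 3′ on the strand of the gene, from RefSeq (GRCh38.p14), and capitals mark GGGCGG or its reverse complement CCGCCC, the GC box bound by SP1. They are chr4:55125596-55125845 (minus strand) for KDR, chr4:54229043-54229292 and chr4:54233710-54233959 (plus strand) for the first and second start of PDGFRA, chr4:54657707-54657956 (plus strand) for KIT and chr13:28495129-28495378 (minus strand) for FLT1.
KDR: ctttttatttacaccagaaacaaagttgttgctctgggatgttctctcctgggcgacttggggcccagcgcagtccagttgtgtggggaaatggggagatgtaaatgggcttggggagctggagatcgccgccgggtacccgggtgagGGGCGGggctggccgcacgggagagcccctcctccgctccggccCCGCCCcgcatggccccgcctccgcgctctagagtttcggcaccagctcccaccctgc
PDGFRA first start: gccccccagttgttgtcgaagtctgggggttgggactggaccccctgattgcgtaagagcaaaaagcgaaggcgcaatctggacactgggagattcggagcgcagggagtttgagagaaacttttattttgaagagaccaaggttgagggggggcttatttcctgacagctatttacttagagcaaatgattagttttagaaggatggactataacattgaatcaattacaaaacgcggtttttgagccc
PDGFRA second start: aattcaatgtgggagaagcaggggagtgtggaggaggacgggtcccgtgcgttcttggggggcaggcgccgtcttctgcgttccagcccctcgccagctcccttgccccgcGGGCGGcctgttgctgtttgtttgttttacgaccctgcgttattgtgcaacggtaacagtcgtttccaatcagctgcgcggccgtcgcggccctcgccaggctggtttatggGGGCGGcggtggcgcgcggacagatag
KIT: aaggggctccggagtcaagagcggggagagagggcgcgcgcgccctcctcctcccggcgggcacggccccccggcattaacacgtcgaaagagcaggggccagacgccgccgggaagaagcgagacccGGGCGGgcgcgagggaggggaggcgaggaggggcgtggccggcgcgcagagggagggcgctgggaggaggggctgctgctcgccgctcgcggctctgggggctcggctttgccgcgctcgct
FLT1: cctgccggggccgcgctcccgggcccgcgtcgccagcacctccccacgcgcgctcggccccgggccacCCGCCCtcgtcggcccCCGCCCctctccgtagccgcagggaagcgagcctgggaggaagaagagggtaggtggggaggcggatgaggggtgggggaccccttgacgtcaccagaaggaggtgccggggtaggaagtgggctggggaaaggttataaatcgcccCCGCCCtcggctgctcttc
The KDR stretch and that of the second PDGFRA start lay wholly within a peak of both lists. The stretches at KIT, at the first PDGFRA start and at FLT1 were covered by none. KIT and FLT1 hold GC boxes and are rich in G and C all the same, with 74.3% and 73.3% over the 300 bases of the RefSeq window (250 before and 50 after the start), against 65.0% at KDR, 66.7% at the second and 47.0% at the first PDGFRA start. The median over all 34961 promoter windows was 58.7%. It was 65.0% over windows overlapped by a shared region and 48.7% over those not overlapped.

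The KDR start lay under the peak with the highest fold of all gene-start peaks of the 9 genes. Its peak ran from 55125081 to 55126357 on chromosome 4 in R1 and from 55125056 to 55126330 in R2, with the summit 113 bp and 109 bp into the gene. The fold enrichment, the authors' ratio of the peak over its background, was 12.21 in R1 and 13.89 in R2. Ranked by fold among all peaks of the list, that is percentile 96.8 in R1 and 99.4 in R2. Fold and p-value of this peak correspond to 205 fragments over the summit in R1 and 235 in R2, on a local background of 15.87 and 15.99 fragments. By fragments it stood at percentile 83.8 in R1 and 87.5 in R2 of all peaks. Among the gene-start peaks alone, which hold more fragments than most peaks, it stood at percentile 31.6 in R1 and 33.4 in R2 by fragments and at 95.3 and 98.9 by fold. Set against other gene starts, KDR thus ranked high by its ratio to the local background and below the middle by fragments.

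PDGFRA had a peak over or near each of its RefSeq starts. At the second start (position 54233960) a peak of 2149 bp in R1 and 2114 bp in R2 covered the start, with folds of 6.01 and 7.25 and 347 and 439 fragments. The first start (54229293) was not covered, and the nearest peak ended 793 bp before it in R1 and 805 bp before it in R2. That upstream peak had folds of 9.35 and 9.87 and 397 and 431 fragments, on a background of 41.57 and 42.79. PDGFRA therefore had more fragments at its starts than KDR but a lower fold in both lists.

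At KIT the gene-start peak lay wholly inside the gene. It began 366 bp after the start in R1 and 553 bp after it in R2, with folds of 7.48 and 5.53 and 85 and 54 fragments. When each gene is taken by its strongest gene-start peak, these are the fewest fragments among the members, at percentile 13.3 in R1 and 8.0 in R2 of all genes with one. By fold the same peak lay at percentile 52.0 and 24.7. KIT passes the 1000 bp limit used for a gene-start region but not one of 500 bp.

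PDGFRB, which encodes the other PDGF receptor, had a peak of 2168 bp in R1 and 2113 bp in R2 over its start, with the summit 76 bp and 78 bp into the gene. Its folds were 7.12 and 6.62 and its fragments 360 and 308. Both values lay in the middle part of all genes, at percentiles 46.7 and 38.4 by fold and 67.8 and 50.3 by fragments. FLT1 and FLT4, the other VEGF receptor genes, had no gene-start region. The peak nearest to the FLT1 start lay 18727 bp away in R1 and 18609 bp away in R2, inside the gene, with folds of 5.04 and 4.78. For FLT4 the tables used give no start, so both ends of its interval were taken, and the nearest peak found in both lists was 4197 bp (R1) and 4189 bp (R2) inside the lower end. The peak nearest the upper end was found in R1 alone, with a fold of 2.13 and 18 fragments.

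Among the ligand genes, VEGFA had many fragments at a low fold. Its start is likewise not in the tables used, and the region over the lower end of its interval (43769063 to 43772316 on chromosome 6) had folds of 5.82 and 4.81 with 506 and 435 fragments on a background of 86.14 and 89.69. By fragments this is percentile 95 in R1 and 86 in R2, and by fold 29.5 and 17.5, the opposite of KDR. VEGFC had 2 shared regions at its start. One covered the start, with folds of 3.48 and 3.58 and 189 and 204 fragments, and the near edge of the other was 890 bp upstream, with folds of 5.71 and 4.87 and 308 and 276 fragments. The start of VEGFB lay between 2 shared regions, the nearer of them 142 bp before it in R1 and 134 bp in R2, with folds of 3.35 and 3.5 and 189 and 205 fragments. VEGFB had the lowest gene-start fold of the members with one, in both lists.

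**Figure D1:**
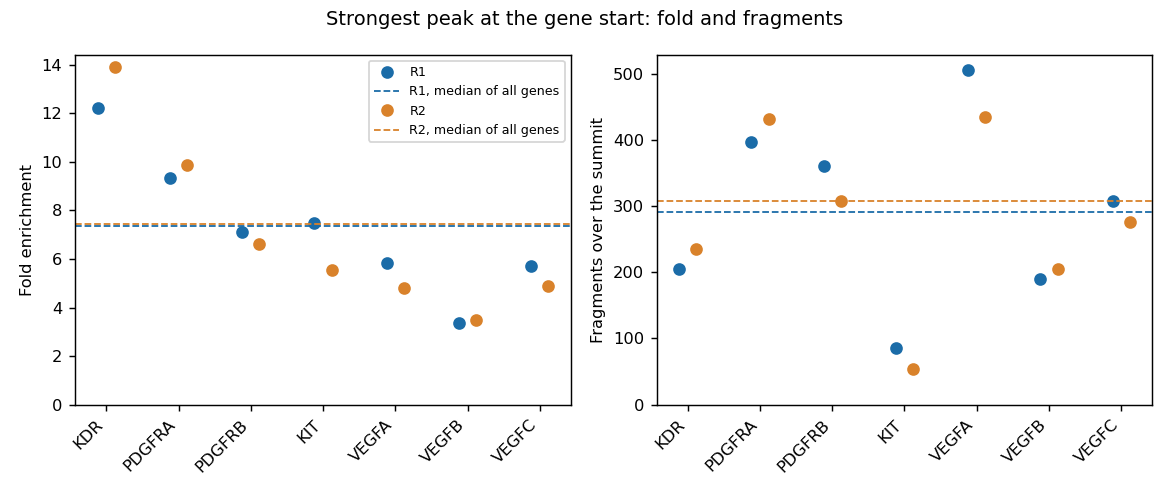
Strongest peak by fold within 1000 bp of a start (for VEGFA of either end of the gene interval), for the 7 genes with one in both lists. Values are fold enrichment (left) and fragments over the summit (right), in R1 (blue) and R2 (orange). Dashed lines are medians over all protein-coding genes with such a peak. KDR lies above the line by fold and below it by fragments, and VEGFA the other way round. The peaks drawn for PDGFRA, KIT, VEGFB and VEGFC do not cover a start.

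In all, 7 of the 9 genes had a gene-start region in both lists, against 72.9% of all protein-coding genes, so the count is close to the background. Among the 7 genes with a start available here, 6 had one, against 74.3% of such genes, and of the 2 judged by the ends of the interval 1 did, against 67.6%. With at least the median fold of each list the members were KDR, PDGFRA, PDGFRB and KIT, 4 of 9 against 56.8%. Of the 8 promoter windows of the members, 5 were overlapped by a shared region, against 53.8% of all windows. No test was made on these counts, and they do not set the members apart from other genes.

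**Figure D2:**
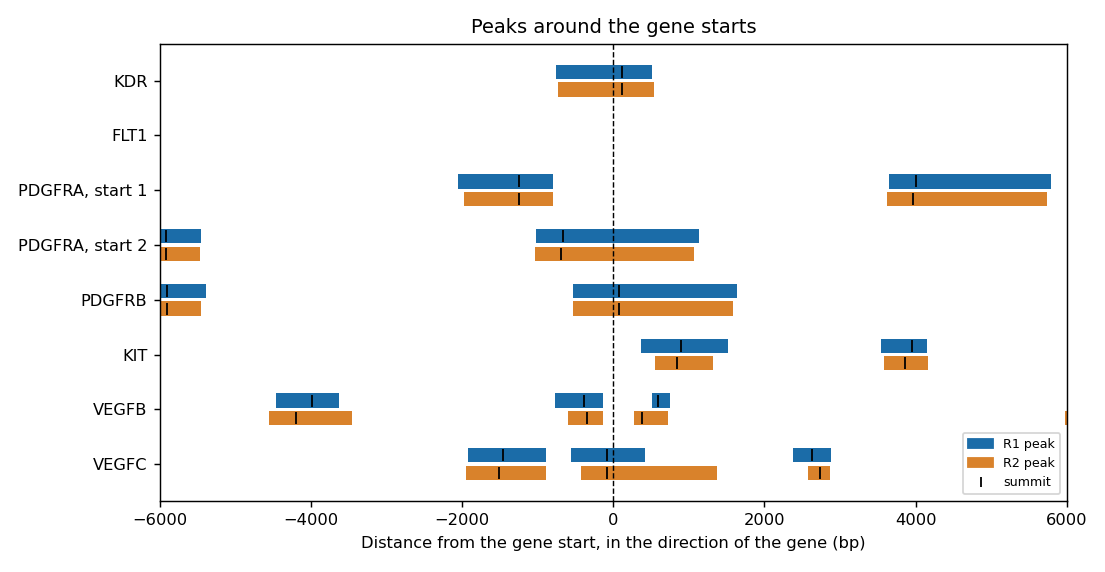
Peaks of R1 (blue) and R2 (orange) near each RefSeq start available here, drawn in the direction of the gene (horizontal axis, bp), with summits as black ticks. Peaks cover the starts of KDR, PDGFRB and VEGFC and the second PDGFRA start; the KIT peaks lie inside the gene and FLT1 has none here.

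Of the 7 motifs searched in the 8 member windows of 300 bases, on both strands, the GC box GGGCGG was present in 7, against 45% of all windows, and only the first PDGFRA start lacked it. The AP-1 motif TGANTCA was present in 1 window, that of the first PDGFRA start, against 7.7% of all. The TEAD motif GGAATG was in none, against 14.0%. For the hypoxia response element only the form ACGTG was searched, and it was in the KIT window alone (21.4% of all windows). The form GCGTG was not searched. CCAAT was in the windows of PDGFRB and of the second PDGFRA start (34.6%), the ETS core GGAAG in 4 (71.9%) and the E-box CANNTG in 6 (68.7%). Matches of different motifs may overlap. A match is a run of letters and not a bound site, and the regions outside promoters could not be searched because no genome sequence was used here.

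The neighbours PDGFRA, KIT and KDR also differed in the number of regions around them. KDR had 17 shared regions within its interval and 100 kb on each side, PDGFRA had 16 and KIT had 2. Per 100 kb that is 6.88 at KDR, 5.95 at PDGFRA and 0.71 at KIT, where the median protein-coding gene had 6.65. KDR and PDGFRA thus lay in the middle (percentiles 52.3 and 43.4) and KIT near the bottom (percentile 6.1). At most 2 shared regions were found at 7.3% of all protein-coding genes. Shared regions covered 13.4 kb of the KDR window, 14.9 kb of the PDGFRA window and 1.77 kb of the KIT window.

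KIT had both of its regions in the first part of the gene and none in either flank. Flanks without any shared region were found at 4.69% of all protein-coding genes. The second KIT region lay at 54661504 to 54662124, with folds of 4.31 and 4.38 and 49 and 43 fragments. From there the next shared region was 240.2 kb further on, past the end of KIT, a gap longer than 99.2% of all gaps between neighbouring shared regions, whose median was 8.7 kb. On the other side the next shared region was 118.2 kb away, a gap at percentile 97.9. These were the longest gaps in the 1096.3 kb from 100 kb before PDGFRA to 100 kb after KDR. No peak of either list alone fell into them.

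The stretch as a whole held 46 shared regions, or 4.2 per 100 kb, against 3.72 for chromosome 4 from its first to its last region. With each region placed by its midpoint, the 359.7 kb between PDGFRA and KIT held 10, all on the PDGFRA side of the gap, and the 337.8 kb between KIT and KDR held 13, all on the KDR side. PDGFRA, KIT and KDR are the only protein-coding genes of the table in this stretch, and the other genes there are long noncoding RNA genes and pseudogenes.

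**Figure D3:**
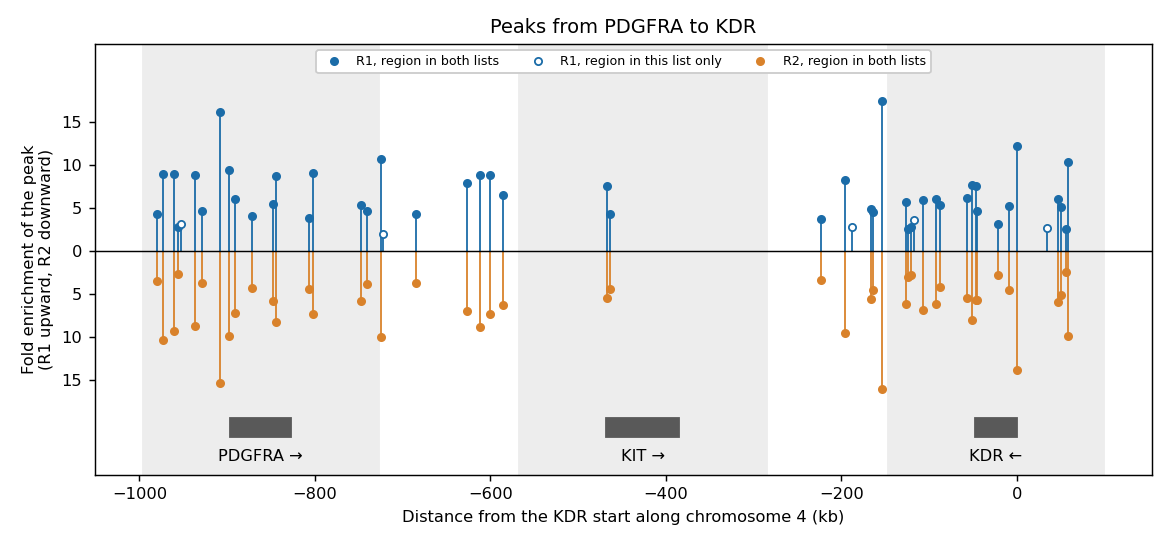
Peaks from 100 kb before PDGFRA to 100 kb after KDR by distance from the KDR start (horizontal axis, kb) and fold enrichment (vertical axis, R1 upward and R2 downward); filled points are regions of both lists, open points of R1 alone, grey bands the windows of 100 kb around each gene, and arrows the direction of the gene. The KIT window holds 2 regions, both near its start, and the PDGFRA and KDR windows hold 16 and 17.

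The strongest region at PDGFRA was not at a start. It lay between genes at 54217384 to 54218326, with its near edge 10967 bp before the first start, and had a fold of 16.06 (R1) and 15.32 (R2) with 321 and 292 fragments. By fold it stood at percentile 99.9 in R1 and 99.85 in R2 of all peaks. Inside PDGFRA the strongest region apart from the starts was at 54281003 to 54282001, with folds of 8.65 and 8.27 and 230 and 210 fragments. In the 100 kb before the gene, regions at 54152430 to 54153585 (folds of 8.87 and 10.35) and 54164903 to 54166122 (8.89 and 9.26) also exceeded the median peak of their list (5.04 and 5.12).

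At KDR the strongest region was that at the start, and the next was upstream of the gene at 55183879 to 55185318, with folds of 10.33 and 9.91 and 233 and 225 fragments. Its fragments were close in number to those at the start, on a higher background of 21.64 and 21.81. Within the gene, 4 further shared regions had folds from 2.84 to 7.57, the strongest by fold in R1 close to the far end of the gene at 55078931 to 55079902 (7.57 and 5.66). A region beyond that end, at 55074105 to 55074870, had 7.69 and 7.99. KDR had 2 regions in R1 alone, with folds of at most 3.58, and none in R2 alone.

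The limit of 100 kb decides which regions are counted. Just inside it on the KIT side of KDR, a region 79.0 kb from the gene had folds of 5.71 and 6.14. Just outside, 106.4 kb from the gene, lay the region with the highest fold of the whole stretch (54971325 to 54972086), with 17.39 and 16.10, at percentiles 99.98 and 99.94 of all peaks and with 192 and 183 fragments. At PDGFRA the region just inside on the KIT side, 86.2 kb from the gene, had 4.59 and 3.87, and that just outside, at 102.1 kb, had 10.62 in R1 and stood at percentiles 91.5 and 89.6 of all peaks. KIT had none inside the limit on either side, and those just outside had 6.51 and 6.25 (117.9 kb) and 3.69 and 3.41 (161.6 kb).

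Counts of shared regions at the other 6 genes ran from 5 to 28. FLT1, the longest member at 194783 bp, had 5, or 1.27 per 100 kb (percentile 8.4 of all protein-coding genes), with a strongest region deep in the gene at 28323957 to 28324801 on chromosome 13 (folds of 6.72 and 6.25, with 59 and 54 fragments). FLT4 had 7, or 2.81 per 100 kb (percentile 16.7), led by a region inside the gene at 180605695 to 180606414 on chromosome 5 (5.67 and 6.39). The VEGF receptor genes other than KDR thus had few shared regions within 100 kb and no strong one there. Just outside that limit, 118.2 kb from FLT1, a region had folds of 11.98 and 10.8, at percentiles 96.2 and 93.4 of all peaks. Among peaks of the top 10% of both lists, FLT1, FLT4, KIT and VEGFB had none within 100 kb and each of the other 5 genes had 1. At least 1 such region was found at 64.4% of all protein-coding genes.

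PDGFRB had 27 shared regions, or 11.2 per 100 kb (percentile 87.8), but its stretch of chromosome 5 is also that of CSF1R, the receptor gene for colony stimulating factor 1. A shared region at the CSF1R start, at 150112145 to 150113756, had folds of 7.75 and 6.86 and lies within 100 kb of PDGFRB. The strongest region of the window, with folds of 10.72 and 10.73, lay within HMGXB3, 110889 bp from the PDGFRB start. Within PDGFRB the strongest was at 150129741 to 150130758, with 8.62 and 8.45 and 195 and 189 fragments. A region 5395 bp upstream of the PDGFRB start had 9.47 and 9.63.

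VEGFC, on the long arm of chromosome 4 far from KDR, had 20 shared regions, of which 8 overlapped the gene, the most of the 9 members. That is percentile 88.0 of all protein-coding genes, though at 109385 bp VEGFC is long and its density of 7.31 per 100 kb of gene lay at percentile 49.5. The strongest lay 39276 bp into the gene at 176752787 to 176753646, with 12.54-fold enrichment in R1 and 12.94-fold in R2 (percentiles 97.4 and 98.5) and 213 and 208 fragments. It stood far above the VEGFC start by fold in both lists. A region 8002 bp upstream of the start had 8.29 and 9.55.

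VEGFA had 24 shared regions, or 11.1 per 100 kb (percentile 87.4). They lay mostly in the flanks, with 22 outside the gene and 2 that overlapped it. The strongest, between genes at 43702276 to 43703420 and 66791 bp from the gene, had folds of 10.72 and 11.15 and 425 and 417 fragments. Another at 43723778 to 43725964, 44247 bp from the gene, had 8.58 and 7.34. The 28 shared regions of VEGFB, or 13.7 per 100 kb (percentile 97.2), belong to a gene-dense stretch of chromosome 11, since 15 of them lay within 1000 bp of the start of another gene and 2 at VEGFB itself. Its strongest were a region within STIP1 by R1 (7.85 and 6.68) and one at the start of MACROD1 by R2 (7.10 and 8.16), and one at the starts of PRDX5 and TRMT112 was close to both (7.76 and 7.95).

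**Figure D4:**
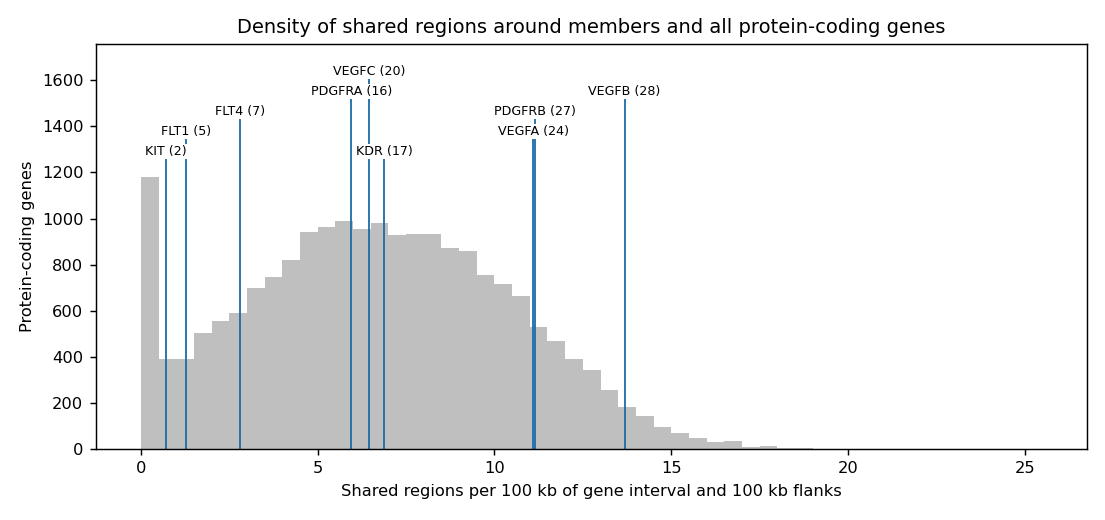
Number of protein-coding genes (vertical axis) by shared regions per 100 kb of the gene interval and 100 kb on each side (horizontal axis), with the 9 members as blue lines and their number of shared regions in brackets. KIT, FLT1 and FLT4 lie at the low end, PDGFRA, VEGFC and KDR near the middle, and VEGFA, PDGFRB and VEGFB at the high end.

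Of the 146 shared regions, 11 lay at a start (or interval end) of a member and 21 at a listed start of another gene. A further 27 lay elsewhere in the body of a member and 87 in the flanks away from any listed start. The same split over all shared regions was not computed, so these counts do not set the members apart. Starts of other genes that were not available here could not be seen, so some of the 27 and 87 regions may lie at a start. Regions of 1 list only were weak, with 15 in R1 alone and 7 in R2 alone and folds of at most 3.59. The members had 165 R1 peaks, 154 R2 peaks and 146 shared regions. The whole lists held 142865 R1 peaks, 134351 R2 peaks and 122421 shared regions. Whether regions of 1 list only are rarer at the members than elsewhere was not tested. R1 and R2 summits of the shared regions were a median of 46 bp apart, against 37 bp over all shared regions.

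The genes most like KDR in 3 values, the gene-start folds in R1 and R2 and the shared regions per 100 kb, were taken as the nearest by distance between percentiles over all genes with a gene-start region in both lists. They were PABPC1L (12.11 and 13.28, 6.98 per 100 kb), ANKEF1 (11.92 and 14.77, 6.72 per 100 kb), ZBTB6 (13.00 and 13.71, 6.82 per 100 kb), ZNF883 (12.16 and 15.39, 6.69 per 100 kb) and CWF19L1 (13.02 and 13.17, 6.80 per 100 kb). ANKEF1 and ZBTB6 were placed by the ends of their intervals. Both lists come from hTERT-RPE1 cells, so this likeness covers 1 cell line only.

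Of the other genes of these pathways, 26 of 28 had a gene-start region in both lists, against 72.9% of all protein-coding genes. A start was available here for only 18 of the 28. The rest, among them VHL, CSF1, NRP1 and PTPRB, were judged by either end of the interval, so their values may not be those of a start. VEGFD, a further lymphatic ligand gene, and PTPRB, the endothelial receptor phosphatase gene, had none in either list. The 6 best by rank of fold were VHL, whose product marks the hypoxia factors for destruction (11.50 and 13.71), PDGFD, a PDGF ligand gene (9.32 and 12.39), CSF1, the ligand gene for CSF1R (9.75 and 9.44), FLT3LG, the ligand gene of the receptor FLT3 (9.21 and 9.25), PIK3R1, a regulatory subunit gene of PI3-kinase (8.65 and 8.70), and ARNT, the partner of the hypoxia factors (8.31 and 8.80). The median fold of the list was 6.04 in R1 and 6.29 in R2, below the 7.36 and 7.44 of all genes with a gene-start region. KITLG, the ligand gene for KIT, had 8.32 and 7.41, and 378 and 339 fragments. The hypoxia factor genes HIF1A (6.09 and 6.27) and EPAS1 (4.0 and 4.67) and the VEGF co-receptor genes NRP1 (4.27 and 4.50) and NRP2 (6.45 and 5.77) were also marked. With at least the median fold in both lists the count was 16 of 28, against 56.8%.

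Marker lists of the cell types in which these receptors are best known were counted the same way. A start was available here for 8 of 12 pigment epithelium, 6 of 12 endothelial and 6 of 12 mural cell and fibroblast markers. The same held for 5 of 6 mast cell and 4 of 6 blood markers. The others, among them BEST1, PMEL, TTR, PECAM1, CDH5, VWF, CLDN5, ESAM, SOX17, THY1 and LUM, were judged by either end of the interval. Whether an interval end of these markers, PMEL included, lies at the start of another gene was not examined. The share over all protein-coding genes, 72.9%, is the background for each count. Of 12 markers of retinal pigment epithelium 9 had a gene-start region in both lists, close to that share. Their folds ran from 2.55 and 2.3 at BEST1 and 3.08 and 2.59 at OTX2 to 10.95 and 10.47 at PMEL, and RPE65, TTR and TYR, which are among the defining markers, had none. Of 12 endothelial markers 5 did, namely ESAM (9.14 and 7.99), ROBO4 (7.93 and 8.03), SOX17 (6.51 and 6.79), ERG (4.7 and 2.62) and CLDN5 (2.91 and 3.6). PECAM1, TEK, TIE1 and EMCN had a region in neither list, and CDH5, VWF and EGFL7 had one in R1 alone, with folds of 2.35, 2.80 and 1.76. Of 12 markers of mural cells and fibroblasts 9 did, again close to the background, with folds from 3.36 and 3.26 at NOTCH3 to 12.13 and 12.75 at RGS5. ANPEP had a region in R2 alone, and THY1 and LUM had none. Of 6 mast cell markers 3 did, and of 6 blood markers 5 did. With at least the median fold in both lists, which 56.8% of all protein-coding genes reached, the counts were 5 for pigment epithelium, 3 for endothelium, 6 for mural cells and fibroblasts, 1 for mast cells and 1 for blood. The share of cells in which a region is open cannot be read from bulk libraries, and whether a few cells of another type add to a region was not tested.

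**Figure D5:**
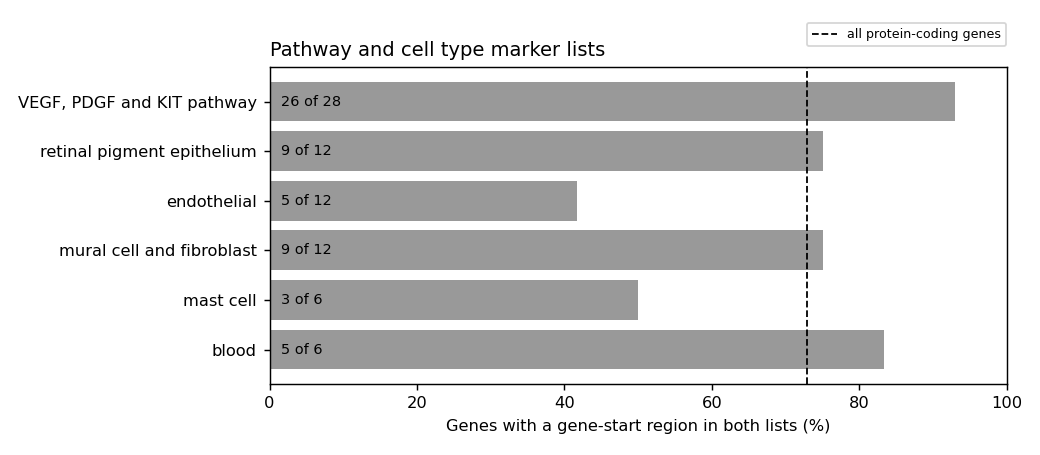
Genes with a gene-start region in both lists (%, horizontal axis) for the pathway list and 5 lists of cell type markers, with counts in the bars and a dashed line at 72.9%, the share among protein-coding genes as a whole. The pathway list reaches 26 of 28 and the endothelial list 5 of 12. Genes without a listed start were judged by either end of the interval.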

How the data were processed

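ATAC-seq peaks of hTERT-RPE1 cells were used as 2 merged lists, one each for sets R1 and R2, on the hg38 build as the submitters' processing notes name it. Which aligner and peak caller made them, and whether reads were shifted for Tn5, is not given in the sources used here. Each peak has a fold enrichment, which is a ratio deposited by the authors. The authors also deposited, for every peak, the −log10 of its p-value and of its q-value, a score taken from the q-value, and the summit. Folds and ranks describe peaks within a list.

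The lists hold 142865 and 134351 peaks on chromosomes 1 to 22 and X. Gene intervals came from the RefSeq table of GRCh38.p14, and starts and sequences from the RefSeq promoter table, which matched 15812 of 19974 protein-coding genes and 7 of 9 members. VEGFA and FLT4 are not among them, and for genes without a start both interval ends were used. A gene-start region lies within 1000 bp of any start. Fragments over the summit and local background were computed from fold and p-value, taking the fold as fragments plus 1 over background plus 1 and p as a Poisson tail. For 100% of the peaks some whole number of fragments gave the deposited −log10 p within 0.001, and no source used here states this relation. The median was 72 fragments in both lists, and the depth of single libraries was not analysed here.

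The members, gene lists and alternatives were chosen with earlier results of these data known. Named are all members, the strongest region of each, the pathway genes without a gene-start region and the 6 best by fold, and the 5 genes nearest to KDR. Joining, counting and recovery of fragments were tested on simulated data. Tables were handled with pandas 2.3.3 and numpy 2.4.6 under Python 3.11.15, Poisson tails came from scipy 1.17.1, and plots from matplotlib 3.10.9.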

Additional observations from a re-analysis of the deposited data

How the results depend on the processing

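Settings tried were 2 stricter q-values, peaks of at least the median fold, a larger overlap between R1 and R2 peaks, each list alone and other windows. KIT kept fewer shared regions per 100 kb than PDGFRA and KDR under all 7 alternatives. Peaks of at least the median fold, fewer by construction, gave 62 shared regions at the members in place of 146, and 3.72 per 100 kb at PDGFRA, 0.35 at KIT and 4.05 at KDR. It left 4 members with a gene-start region, 16 pathway genes, 5 pigment epithelium markers, 3 endothelial, 1 mast cell and 1 blood marker, against 56.8% of all genes. Gene intervals alone gave 34 regions, and 2.42 per 100 kb at KIT and 10.61 at KDR, and flanks of 50 kb gave 91 regions and 1.09 per 100 kb at KIT. The endothelial count was 9 of 12 with 2000 bp around the start, close to the 76.5% of all genes at that window. The mural cell and fibroblast count rose there from 9 to 12 of 12. With R1 alone the endothelial count was 8, and no share over all genes was computed for that setting. The added CDH5, VWF and EGFL7 had R1 folds of at most 2.80. With 500 bp around the start KIT was lost and 6 members remained, against 69.8% of all genes. No paired analysis was possible because the libraries of a set were merged before the lists were made, and for the same reason no single library could be left out.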
